A study of Homo sapiens with 74 samples.

Results

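The genes described here encode alpha and beta tubulin isotypes. They are the 10 genes TUBB, TUBB1, TUBB2A, TUBB2B, TUBB3, TUBB4A, TUBB4B, TUBB6, TUBA1A and TUBA4A, taken by symbol from count tables that list 28131 genes. Messenger RNA was counted in 2 established human leukaemia cell lines, K562 and HEL. In K562, control cells were compared with knockout (KO) of DOT1L, the histone H3 lysine 79 methyltransferase, and with KO of ENL (symbol MLLT1), a chromatin reader that works with DOT1L. In HEL, control cells were compared with knockdown (KD) of DOT1L. No drug treatment, time point or further allele is named for any of these 5 groups, and whether a knockout was 1 clone or a pool is not given in the sources used here. K562 gave 3 libraries of each knockout and 2 distinct control libraries, and HEL gave 2 of each kind. Columns 2 and 3 of the K562 control were identical throughout and entered as 1 library, called control 2.

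Microtubules are hollow polymers of a dimer of alpha and beta tubulin. Vertebrate isotypes of each chain share most of their sequence and differ chiefly in the C-terminal tail, where enzymes add or remove residues and where motors and other microtubule proteins bind. Isotypes are expressed by cell type. TUBB1 is the beta tubulin of megakaryocytes and platelets and forms most of the marginal band that keeps platelets discoid, with TUBA4A as a partner alpha chain. TUBB2A, TUBB2B, TUBB3, TUBB4A and TUBA1A are abundant in neurons, whereas TUBB, TUBB4B and TUBB6 are made by many cell types. Cells also adjust tubulin RNA to the pool of free dimers, through decay of RNA that is being translated.

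The 10 genes lie on 8 chromosomes, on GRCh38. TUBB2A (chr6:3153666-3157549) and TUBB2B (chr6:3224281-3227653) are neighbouring copies on the minus strand. TUBA1A (chr12:49184795-49189324, minus strand) lies between the alpha tubulin genes TUBA1B and TUBA1C. TUBB1 is at chr20:59019254-59026654 (plus), TUBB3 at chr16:89922009-89936097 (plus) and TUBB4A at chr19:6494319-6502848 (minus). TUBB4B is at chr9:137241259-137243707 (plus), TUBB6 at chr18:12307669-12329825 (plus) and TUBA4A at chr2:219249710-219254608 (minus). TUBB is listed at chr6:30720201-30725426 (plus) and on 7 alternate sequences of the same region.

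RefSeq promoter windows (GRCh38.p14) were matched for 10 of the 10 genes. The 4 shown are from genes on which the results turn: TUBB1, TUBB4A and TUBB2B, which moved most among the beta chains in K562, and TUBB4B, the most abundant of them there. Only bases outside every exon of the deposited annotation are printed, 5′ to 3′ on the gene's own strand. Capitals mark matches to AGATAA, a form of the site bound by GATA factors, to TGAGTCA, a site of AP-1 and NF-E2 proteins, or to CCAAT, the box bound by NF-Y, each searched on both strands. The TUBB4A window is the one before its upstream start, chr19:6502849-6503098. The TUBB2B window is chr6:3227654-3227903, the TUBB4B window chr9:137241037-137241258 and the TUBB1 window chr20:59019179-59019253.
TUBB4A: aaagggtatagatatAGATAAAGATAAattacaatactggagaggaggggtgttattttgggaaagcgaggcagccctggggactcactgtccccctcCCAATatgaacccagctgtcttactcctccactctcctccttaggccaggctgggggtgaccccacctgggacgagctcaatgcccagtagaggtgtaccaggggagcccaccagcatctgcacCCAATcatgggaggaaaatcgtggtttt
TUBB2B: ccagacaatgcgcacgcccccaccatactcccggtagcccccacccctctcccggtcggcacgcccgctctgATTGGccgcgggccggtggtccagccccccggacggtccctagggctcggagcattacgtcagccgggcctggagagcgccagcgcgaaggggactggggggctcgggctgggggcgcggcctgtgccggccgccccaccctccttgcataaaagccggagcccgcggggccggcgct
TUBB4B: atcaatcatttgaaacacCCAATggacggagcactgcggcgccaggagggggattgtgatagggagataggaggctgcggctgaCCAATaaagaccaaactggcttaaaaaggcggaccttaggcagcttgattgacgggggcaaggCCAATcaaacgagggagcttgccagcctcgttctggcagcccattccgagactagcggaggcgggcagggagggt
TUBB1: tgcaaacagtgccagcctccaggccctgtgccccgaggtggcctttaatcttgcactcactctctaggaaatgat

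The upstream TUBB4A window held AGATAA at positions -235 and -229 from the start, on the strand of the gene, and CCAAT at -152 and -28. No other window of the 10 genes held AGATAA in its 300 bases, 250 before and 50 after the start. TUBB4B had CCAAT at -232, -166 and -103, TUBA1A had it at -125 and, on the opposite strand, at -88, and TUBB2B had it once, on the opposite strand at -178. Single matches also lay in windows of TUBB (-165), TUBB3 (-79, opposite strand) and TUBB6 (-68, opposite strand). TGAGTCA was found once, in a TUBB3 window at -21. The full TUBB1 window held none of these motifs. Over 35116 promoter windows of the same length, AGATAA or its complement TTATCT was present in 10.3%, TGAGTCA or TGACTCA in 4.95%, and CCAAT or ATTGG in 34.6%. The 250 bases before the start had 57.6% GC and 2 CpG in TUBB1, 52.8% and 3 in the upstream TUBB4A window, and 75.2% and 28 in TUBB2B. The other TUBB4A window had 74.8% and 18, and it held none of these motifs. The median over all windows was 58.0% GC and 11 CpG. These matches describe the letters and were not tested for binding.

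K562 libraries held 15404944 to 29236703 counts and HEL libraries 12151495 to 12811688. The targeted RNAs fell but were still counted: DOT1L by 0.53 (log2) in the K562 DOT1L KO and by 1.64 in the HEL KD, and MLLT1 by 0.48 in the ENL KO, each with no overlap between libraries. The ENL KO labels name no sequencing lane, unlike the other K562 labels, so a batch difference and the ENL knockout cannot be told apart. Nothing in the labels says that replicates were separate cultures, so p-values measure the spread between these samples. In bulk RNA, fewer cells of a type and less RNA per cell cannot be told apart. Levels are given as CPM, counts scaled to a common library size with TMM factors, and every adjusted p is from the quasi-likelihood test of edgeR, adjusted by Benjamini-Hochberg over all genes tested, at a threshold of 0.05.

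The levels of the 10 genes can be ordered only after division by exonic length (CPM per kilobase). In control K562, TUBB4B stood at 425 ± 10.5 (SD, n = 2). TUBB6 followed at 70.7 ± 0.822, TUBA4A at 30.4 ± 1.12, TUBB2A at 25.7 ± 0.404 and TUBB4A at 12.9 ± 0.484 (SD, n = 2 each). TUBA1A at 9.85 ± 0.493 and TUBB2B at 9.85 ± 0.953 overlapped each other, and TUBB at 9.27 ± 0.372 overlapped both. The place of TUBB rests on its deposited length, which sums 8 listed copies. With its length on chromosome 6 alone it stood at 74.1 ± 2.98, above TUBB6. TUBB3 (5.70 ± 0.427) and TUBB1 (4.53 ± 0.0309) were lowest of the 10, with no overlap between them. Of the genes tested in K562, 99.3% lay below TUBB4B and 42.2% below TUBB1 on this scale.

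HEL controls had another order. TUBA4A (79.3 ± 5.68, SD, n = 2) and TUBB4B (76.9 ± 0.501) overlapped at the top on the per-length scale, followed by TUBB1 at 36.8 ± 1.25 and TUBA1A at 18.9 ± 1.61. TUBB6 (7.34 ± 0.748) and TUBB4A (6.77 ± 0.300) overlapped. TUBB was at 1.30 ± 0.015, TUBB2A at 0.931 ± 0.101 and TUBB3 at 0.337 ± 0.195. With the length on chromosome 6 alone TUBB was at 10.4 ± 0.119, between TUBA1A and TUBB6. TUBB2B had 0 counts in each of the 4 HEL libraries, which allows at most 3 counts per library, or 0.234 to 0.247 CPM. The lines were not tested against each other, because one table counts reads and the other fragments.

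**Figure D1:**
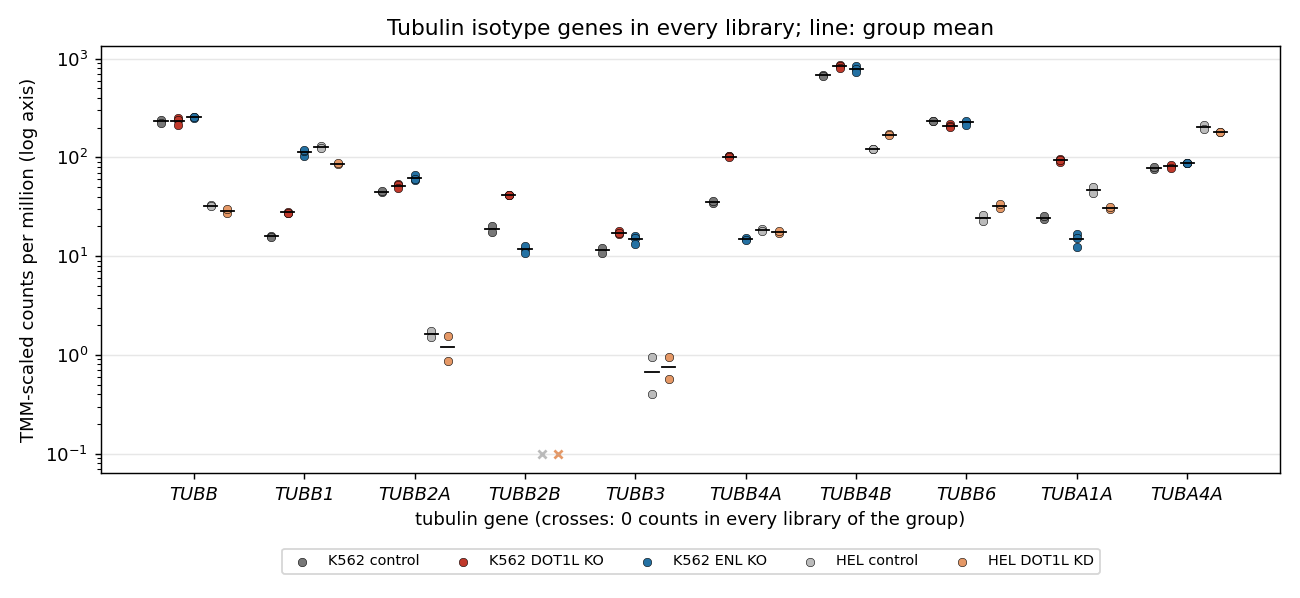
Level of each of the 10 tubulin genes in every library, as TMM-scaled CPM on a log axis, with 1 point per library, a line at the group mean and a cross at the foot of the plot where a group has 0 counts. TUBB1 lies at 15.7 to 15.9 in K562 controls and at 104 to 118 in the ENL KO. TUBB4A, TUBB2B and TUBA1A lie above the controls in the DOT1L KO and below them in the ENL KO.

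In the K562 DOT1L KO, 8 of the 10 tubulin genes passed the threshold, 7 higher and 1 lower, where 51.1% of the 14301 genes tested did (26.9% higher and 24.2% lower). With a log2 fold change of at least 1 as well, 3 of 10 passed, against 15.8% of all genes. Their median log2 fold change was 0.45, beside 0.01 over all genes. In the ENL KO 8 of 10 passed, 5 higher and 3 lower, against 41.0% of genes (18.8% higher, 22.2% lower), and 2 of 10 with the fold limit, against 11.0%. The median of the 10 was 0.16, beside 0.00282 over all genes. Without control library 2, which leaves control library 1 alone, fewer of the 10 passed in the ENL KO. A smaller share of all genes passed there too. Both knockouts were set against the same 2 control libraries, so the counts are not independent.

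The platelet isotype TUBB1 rose in both knockouts, and far more in the ENL KO. The control libraries had 15.9 and 15.7 CPM of TUBB1. Those of the DOT1L KO had 27.4, 28.2 and 27.6, and those of the ENL KO 104, 115 and 118. All DOT1L KO libraries were thus above the controls, and all ENL KO libraries were above those of the DOT1L KO. The log2 fold change was 0.81 (SE 0.079, adjusted p 1.68e-06) in the DOT1L KO and 2.83 (SE 0.079, adjusted p 2.60e-11) in the ENL KO, a 7.10-fold increase. Set directly against the ENL KO, the DOT1L KO was lower by 2.02 (log2 fold change -2.02, SE 0.063, adjusted p 1.19e-11), a comparison that uses no control library. In absolute log2 fold change TUBB1 exceeded 96.8% of the genes tested in the ENL KO and 79.7% in the DOT1L KO.

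In HEL, where TUBB1 was high to begin with, it fell on DOT1L knockdown. The controls had 132 and 126 CPM and the KD libraries 84.9 and 88.3, with no overlap. The log2 fold change was -0.57 (SE 0.046, adjusted p 1.74e-15). The test of the difference between the lines (KD in HEL against KO in K562) gave an interaction of -1.36 (SE 0.095, adjusted p 2.44e-10). In that test the line cannot be told apart from the means of depletion (KD or KO) or from the unit counted (reads or fragments).

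Markers of megakaryocytes and platelets were measured beside TUBB1. Of 13 markers, 5 had any count in K562 controls, and those at 0 included FLI1, GP1BA, GP1BB, GP9, PF4, SELP and VWF. In the DOT1L KO 7 had a count and in the ENL KO 8, with FLI1, GP1BA, GP1BB and SELP at 0 in both. The summed level of the list was 449 to 452 CPM in K562 controls, 603 to 624 in the DOT1L KO and 526 to 536 in the ENL KO, with NFE2 the most abundant marker. All 4 markers tested in K562 passed in each knockout, 4 higher in the DOT1L KO and 3 higher and 1 lower in the ENL KO. Of all genes tested, 51.1% passed in the DOT1L KO (26.9% higher) and 41.0% in the ENL KO (18.8% higher, 22.2% lower). In HEL 12 of 13 had counts, and GP1BB was at 0. The HEL sum, led by ITGA2B, went from 3910 to 3935 CPM in controls to 3240 to 3263 in the KD. There 10 of 11 tested markers were called (3 higher, 7 lower), where 55.0% of all genes were. ITGB3, the integrin beta chain of the platelet fibrinogen receptor, had log2 fold changes of 1.27 in the DOT1L KO (adjusted p 5.26e-06), 2.42 in the ENL KO (9.96e-09) and -1.05 in HEL (2.51e-34). ITGA2B, its alpha chain, had 2.35 (adjusted p 6.09e-08), 1.31 (4.61e-05) and -0.10 (0.00239), and NFE2, the factor that activates TUBB1 in megakaryocytes, had 0.37 (2.62e-05), -0.26 (0.000664) and 0.15 (3.52e-05). The part of these markers in the change of TUBB1 was not tested.

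TUBB4A, an isotype typical of brain, moved in opposite directions in the 2 knockouts. The controls had 34.2 and 36.1 CPM. The DOT1L KO libraries had 103, 103 and 99.9, and the ENL KO libraries 14.9, 15.2 and 14.5. The 3 groups did not overlap. The log2 fold change was 1.53 (SE 0.065, adjusted p 5.25e-10) in the DOT1L KO and -1.24 (SE 0.070, adjusted p 1.24e-08) in the ENL KO. Between the knockouts it was 2.77 (SE 0.062, adjusted p 9.01e-13), a 6.82-fold higher level with DOT1L lost than with ENL lost. In HEL it was 19.0 and 17.9 CPM in controls and 17.3 and 17.9 in the KD, which overlapped (log2 fold change -0.07, SE 0.103, 95% interval -0.27 to 0.14, adjusted p 0.613). The interaction was -1.58 (SE 0.112, adjusted p 3.55e-10).

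TUBA1A, the main alpha tubulin of developing neurons, had the largest rise of the 10 genes in the DOT1L KO. Its controls were at 23.5 and 25.3 CPM, the DOT1L KO at 95.6, 90.7 and 94.2, and the ENL KO at 16.8, 15.1 and 12.5. Each group was apart from the other two. The log2 fold change was 1.94 (SE 0.095, adjusted p 1.82e-09), or 3.83-fold, in the DOT1L KO and -0.71 (SE 0.101, adjusted p 8.22e-05) in the ENL KO. Between the knockouts it was 2.65 (SE 0.087, adjusted p 1.86e-11). In HEL it went from 49.6 and 44.0 CPM to 30.0 and 31.7 (log2 fold change -0.60, SE 0.074, adjusted p 9.46e-10). The direction on DOT1L depletion was thus up in K562 and down in HEL, with an interaction of -2.52 (SE 0.108, adjusted p 1.00e-13).

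TUBB2B, which is made in developing brain, had 20.2 and 17.6 CPM in the controls. With DOT1L lost it had 41.8, 42.0 and 41.4, and with ENL lost 11.8, 12.7 and 10.8. Again the groups did not overlap. It rose by 1.14 (log2, SE 0.089, adjusted p 1.82e-07) in the DOT1L KO and fell by 0.68 (SE 0.096, adjusted p 7.78e-05) in the ENL KO, and the knockouts differed by 1.82 (SE 0.083, adjusted p 4.15e-10). With 0 counts in HEL it had no fold change there and no estimable interaction. Its neighbour TUBB2A had 44.6 and 45.6 CPM in the controls. With DOT1L lost it had 54.0, 52.4 and 49.4, and with ENL lost 59.5, 66.2 and 59.8, so that the groups did not overlap. It rose by 0.20 (SE 0.072, adjusted p 0.0314) in the DOT1L KO and by 0.45 (SE 0.073, adjusted p 0.000219) in the ENL KO. The DOT1L KO call of TUBB2A was lost when either control library, DOT1L KO library 1 or DOT1L KO library 2 was left out (largest adjusted p 0.160). The knockouts differed by -0.25 (SE 0.064, adjusted p 0.00372). In HEL TUBB2A had only 11 to 22 counts per library, with an interval of its log2 fold change from -1.13 to 0.27 (adjusted p 0.311). The copies are near identical, so reads may be split between them or dropped.

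TUBB3, the beta tubulin used as a neuronal marker, rose in both knockouts by less than a doubling. The controls had 12.0 and 10.8 CPM. The DOT1L KO had 17.9, 17.0 and 17.0, and the ENL KO 15.9, 15.3 and 13.3. Both knockouts were above the controls in every library. The log2 fold change was 0.59 (SE 0.103, adjusted p 0.000304) in the DOT1L KO and 0.38 (SE 0.106, adjusted p 0.0110) in the ENL KO, which did not pass without control library 2 (0.31, adjusted p 0.111). The difference between the knockouts was 0.22 (SE 0.090, 95% interval 0.04 to 0.39, adjusted p 0.0529). It passed with each of the 3 other scalings (adjusted p 0.0187 to 0.0448) and without ENL KO library 1 (0.0349). HEL libraries had 5 to 12 counts of TUBB3, and the log2 fold change of 0.17 (SE 0.494, adjusted p 0.790) was negative when HEL control 1 or KD 1 was left out (-0.32 and -0.25).

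Markers of neurons were measured beside these isotypes. Of 6 markers, 3 had any count in K562 controls, and NEFL and RBFOX3, which define mature neurons, were at 0 in each of the 5 groups. The summed level was 6.62 to 8.18 CPM in K562 controls, 42.9 to 51.3 in the DOT1L KO, 36.9 to 51.2 in the ENL KO, 4.55 to 4.92 in HEL controls and 15.7 to 17.5 in the KD. Of the 2 markers tested in K562, 2 were higher with DOT1L lost and 1 with ENL lost, and the 1 tested in HEL was higher. The shares of all genes called higher were 26.9%, 18.8% and 27.0%. SYP, synaptophysin of secretory vesicles, led the list in every group, with log2 fold changes of 2.80 in the DOT1L KO (adjusted p 1.93e-08), 2.90 in the ENL KO (2.50e-08) and 2.06 in HEL (1.02e-16). The part of SYP or of any other marker in the tubulin changes was not tested.

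**Figure D2:**
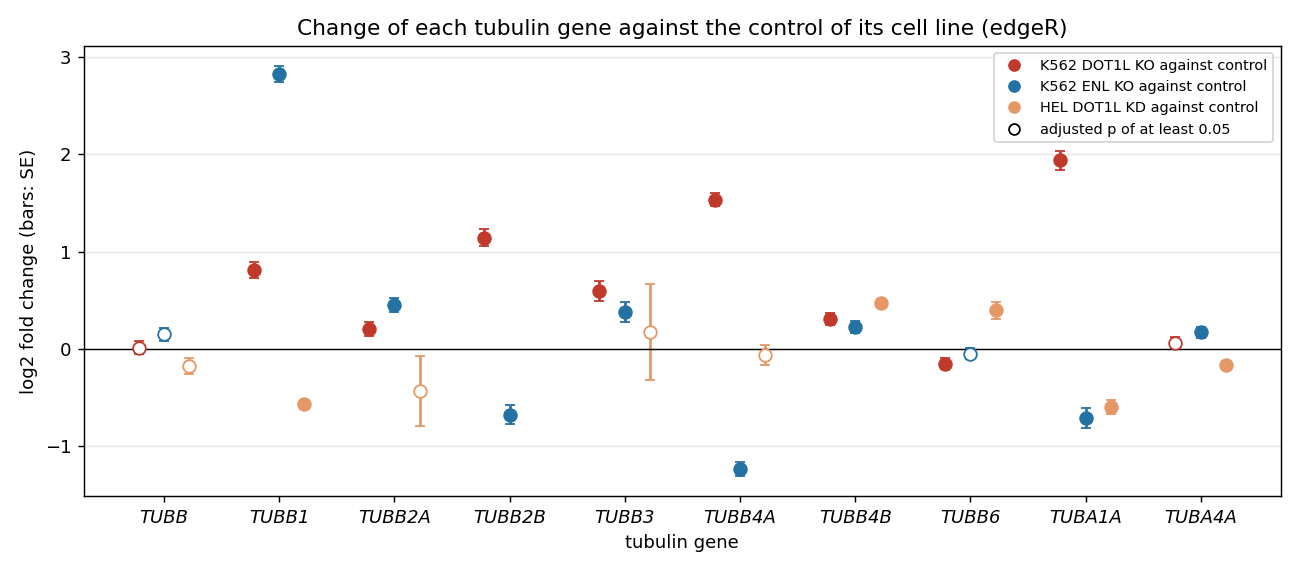
Log2 fold change of each tubulin gene against the control of its own cell line, with bars for the SE and filled points for an adjusted p under 0.05 (edgeR). TUBB1 stands at 2.83 in the ENL KO and -0.57 in HEL, and TUBB4A, TUBB2B and TUBA1A have opposite signs in the 2 K562 knockouts, which share their controls.

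TUBB4B, the most abundant beta tubulin of K562, rose in all 3 depletions by less than a doubling. K562 controls had 688 and 664 CPM. Libraries without DOT1L had 856, 836 and 813, and those without ENL 850, 779 and 739. In HEL it went from 122 and 123 CPM to 171 and 169. The depleted libraries were above their controls in each case. The log2 fold changes were 0.30 (SE 0.061, adjusted p 0.000878), 0.22 (SE 0.061, adjusted p 0.00914) and, in HEL, 0.47 (SE 0.041, adjusted p 1.34e-14). Without control library 2 the ENL KO value did not pass (0.20, adjusted p 0.0823). TUBB4B shares 125 exonic bases with FAM166A on the other strand, a gene with 15 counts in all K562 libraries together and 1 in HEL.

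TUBB6 and TUBB, also widely expressed, changed little in K562. TUBB6 had 236 and 232 CPM in controls. The DOT1L KO had 217, 208 and 206, and the ENL KO 230, 233 and 214. It fell by 0.15 (SE 0.055, adjusted p 0.0319) in the DOT1L KO, a call lost under 6 of 12 alternatives, among them leaving out either control library or DOT1L KO library 2 or 3 (largest adjusted p 0.145), and the ENL KO overlapped the controls (-0.05, adjusted p 0.494). In HEL TUBB6 rose from 26.0 and 22.5 CPM to 30.5 and 33.5 (0.40, SE 0.086, adjusted p 0.000105). AFG3L2, which overlaps 638 of the 3309 exonic bases of TUBB6 on the other strand, had -0.15 (adjusted p 0.0736) in the DOT1L KO and 0.08 (adjusted p 0.210) in HEL. The kit marks strand, but whether counting used it is not given in the sources used here.

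TUBB passed in none of the 5 comparisons as tested, but it did under some alternatives. K562 controls had 238 and 225 CPM. The DOT1L KO had 250, 237 and 212, and the ENL KO 258, 252 and 259, with log2 fold changes of 0.01 (95% interval -0.12 to 0.14, adjusted p 0.902) and 0.15 (0.02 to 0.28, adjusted p 0.0930). In HEL it had 32.6 and 32.1 CPM in controls and 27.4 and 29.8 in the KD (-0.18, -0.33 to -0.02, adjusted p 0.0569). The ENL KO lay above the DOT1L KO by 0.14 (log2), with an adjusted p of 0.0609 that was 0.0223 with no filter and 0.0167 without DOT1L KO library 1. The HEL value passed with median-ratio scaling (adjusted p 0.0491) and without KD library 2 (0.0436), and the interaction of -0.17 (adjusted p 0.261) passed without DOT1L KO library 3 (0.0384). The HEL groups did not overlap, and neither did the ENL KO and the controls. Because TUBB is listed on 8 sequences, reads that match several copies may have been dropped or divided, and its level is uncertain.

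TUBA4A, an alpha tubulin of platelets, rose slightly in the ENL KO and fell slightly in HEL. It had 75.9 and 79.9 CPM in K562 controls, 81.9, 83.3 and 78.7 in the DOT1L KO (0.06, SE 0.057, adjusted p 0.393) and 86.9, 87.7 and 88.3 in the ENL KO (0.17, SE 0.058, adjusted p 0.0312). The ENL KO call was lost under 6 of 12 alternatives, among them leaving out either control library or ENL KO library 2 (largest adjusted p 0.229). In HEL it went from 214 and 193 CPM to 182 and 180 (log2 fold change -0.16, SE 0.040, adjusted p 0.000440), which did not pass without HEL control 1 (-0.09, adjusted p 0.0657). STK16 shares 628 of its 2563 exonic bases on the other strand and had -0.23 (adjusted p 0.0488) in the DOT1L KO.

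In HEL as a whole, 5 of the 9 tubulin genes tested passed, 2 higher and 3 lower, where 55.0% of 12635 genes did (27.0% higher, 28.0% lower). The share is near that of all genes. With DESeq2 and with no filter it was again 5 of 9, where 36.1% and 32.9% of all genes passed. Of the 9, 0 passed with a fold limit of 1, against 5.84%. The direct comparison of the knockouts called 5 of 10 (3 higher with DOT1L lost, 2 lower), against 60.2% (31.8% higher, 28.3% lower), and 4 of 10 with the fold limit, against 19.2%. For the interaction, 5 of 10 passed (2 higher and 3 lower in HEL), against 38.9% of 15367 genes (19.8% higher, 19.1% lower). TUBB2B was kept in that fit by its K562 counts alone.

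Shares of the summed tubulin level show what these changes did to the isotype mix. Each isotype was expressed as a percent of the per-length sum over 9 beta or 8 alpha tubulin genes in a library. These shares are a description with no test, since the smallest two-sided exact permutation p is 0.2 for 2 against 3 libraries and 0.333 for 2 against 2. TUBB4B held 75.4% ± 0.231 (SD, n = 2) of beta tubulin in K562 controls, 74.6% ± 0.011 (n = 3) in the DOT1L KO and 75.0% ± 1.37 (n = 3) in the ENL KO. TUBB1 held 0.803% ± 0.012, 1.13% ± 0.035 and 4.88% ± 0.564 in the same groups. The direction of the TUBB4B share with DOT1L lost depends on the length used. With the length of TUBB on chromosome 6 alone, TUBB4B held 67.6% in controls and 68.3% in the DOT1L KO. Without division by length it held 53.3% and 55.0%. TUBB4A went from 2.29% ± 0.136 to 5.32% ± 0.080 with DOT1L lost and 0.829% ± 0.037 with ENL lost, and TUBB2B from 1.75% ± 0.131 to 3.10% ± 0.067 and 0.927% ± 0.063. TUBB6 held 12.6% ± 0.127 in controls, 9.04% ± 0.092 with DOT1L lost and 10.3% ± 0.330 with ENL lost. The summed beta level was 555 to 572 in controls, 684 to 721 in the DOT1L KO and 625 to 698 in the ENL KO, above the controls in each knockout library.

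In HEL the same beta sum was 129 to 132 in controls and 149 to 150 in the KD. Without division by length the sum was 324 to 333 CPM in controls and 333 to 340 CPM in the KD, which overlapped. TUBB4B rose from 59.0% ± 1.14 to 71.3% ± 0.995 (SD, n = 2 each) while TUBB1 went from 28.2% ± 0.593 to 16.5% ± 0.384. These shares depend on length: without division by it, TUBB1 held 39.2% and TUBB4B 37.3% in HEL controls, and 25.7% and 50.5% in the KD. The deposited length of TUBB, 24937 bases, sums its 8 listed sequences. With the 3117 bases on chromosome 6 alone the TUBB share of K562 controls was 11.8% in place of 1.64%, and that of TUBB4B 67.6%.

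**Figure D3:**
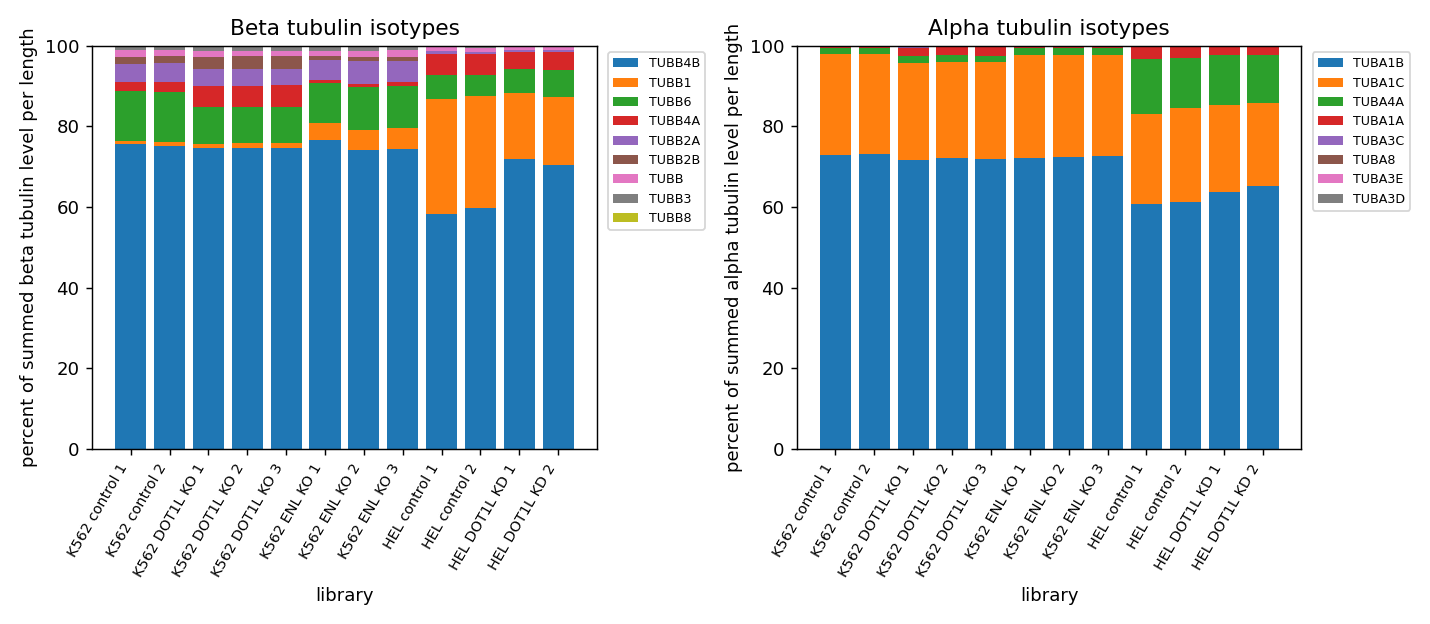
Share of each isotype in the summed beta (left) and alpha (right) tubulin level per length, in percent, with 1 bar per library. TUBB1 takes 28.2% of beta tubulin in HEL controls and 16.5% in the KD, and less than 6% in every K562 library; TUBA1B and TUBA1C make up most of alpha tubulin throughout.

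The summed alpha level per length was 1991 to 2114 in K562 controls and 1841 to 1934 in the DOT1L KO. It was 1967 to 2078 in the ENL KO. In HEL it was 606 to 611 in controls and 571 to 591 in the KD. Unlike the beta sum, the alpha sum thus lay below the controls with DOT1L depleted, and it overlapped them in the ENL KO. The alpha mix was carried by genes outside the 10. TUBA1B held 73.0% ± 0.140 and TUBA1C 25.0% ± 0.142 of alpha tubulin in K562 controls (SD, n = 2). TUBA1A held 0.480% ± 0.00369 there, 2.00% ± 0.092 with DOT1L lost and 0.294% ± 0.035 with ENL lost. TUBA4A held 1.48% ± 0.00845 in K562 controls but 13.0% ± 0.851 in HEL controls and 12.2% ± 0.391 in the KD. TUBA1B and TUBA1C, which flank TUBA1A and resemble it closely, had log2 fold changes of -0.14 (adjusted p 0.0332) and -0.17 (adjusted p 0.0127) in the DOT1L KO and -0.03 (0.690) and 0.01 (0.881) with ENL lost. In HEL they had 0.01 (0.739) and -0.18 (1.70e-05). TUBA1A therefore moved by more than either flanking gene in each depletion, though the difference between genes was not tested. TUBA3C, an alpha tubulin with near-identical copies, had 3 and 6 counts in K562 controls and 0 in HEL. Libraries without DOT1L had 221, 270 and 190, and those without ENL 91, 93 and 50. Its log2 fold changes were 5.44 (adjusted p 2.42e-09) and 4.25 (adjusted p 1.95e-07).

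Other neighbours were read after their values were known, as the nearest tested gene on each side of a tubulin gene that it does not overlap. Only those of TUBB4A, TUBB1, TUBB2A and TUBB2B are given here, and some neighbours of other tubulin genes passed too. DENND1C, 12511 bases from TUBB4A, had 1.89 (adjusted p 6.37e-05) in the DOT1L KO and -1.49 (adjusted p 0.0128) in the ENL KO, the signs of TUBB4A. In HEL DENND1C had -0.19 (adjusted p 0.0816). The values that follow are for the DOT1L KO and the ENL KO in that order. TNFSF9, 28178 bases away on the other side, had -0.34 (adjusted p 0.0207) and -0.75 (adjusted p 0.000154). CTSZ, 12000 bases from TUBB1, had 0.69 (adjusted p 0.000250) and 0.64 (adjusted p 0.000643), and PRELID3B on the other side had -0.33 (adjusted p 0.162) and 0.12 (adjusted p 0.637). LINC02525, which lies between TUBB2A and TUBB2B, had -4.64 (adjusted p 1.88e-07) in the DOT1L KO and 0.25 (adjusted p 0.380) in the ENL KO. PSMG4, on the far side of TUBB2B, had -0.63 (adjusted p 0.000147) and 0.24 (adjusted p 0.0663). BPHL, on the far side of TUBB2A, had 0.21 (adjusted p 0.146) and 0.11 (adjusted p 0.472). An effect of position was not tested.

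Genes with the nearest pattern were sought among 8988 genes with at least 5 CPM on average in each table, by the root mean square difference over the 3 log2 fold changes against control. For TUBB1 they were RAB27B (difference 0.19), a GTPase of granule secretion, at 1.12, 2.79 and -0.69 in the DOT1L KO, ENL KO and HEL KD, and SNPH (0.38), which anchors mitochondria on microtubules, at 0.56, 2.22 and -0.57. For TUBB4A they were PKIG (0.20), a protein kinase A inhibitor, at 1.47, -1.53 and 0.09, and MELTF (0.22) at 1.46, -1.00 and 0.22. For TUBA1A they were CAMK2N1 (0.11), an inhibitor of CaM kinase II, at 2.12, -0.74 and -0.58, and PPFIBP1 (0.11) at 1.76, -0.76 and -0.58. Both knockouts share control libraries, so their 2 values are not independent.

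Genes that fold, nucleate, modify or organise tubulin were read from lists. Their counts stand beside the 51.1% of all genes called in the DOT1L KO, 41.0% in the ENL KO and 55.0% in HEL. Of 21 folding genes, the prefoldin, CCT and cofactor genes, 12 passed in the DOT1L KO (4 higher, 8 lower, median -0.14), 8 in the ENL KO (6 higher, 2 lower, median 0.06) and 15 of 20 tested in HEL (8 higher, 7 lower, median 0.01). CCT5, a chaperonin subunit, fell by 0.23, 0.30 and 0.14 in the DOT1L KO, ENL KO and HEL. TBCA, which captures beta tubulin, fell by 0.47 and 0.31 in the knockouts and had 0.31 in HEL, where it rose. TBCC, a late assembly factor, rose by 0.22, 0.19 and 0.37. Over all genes the medians were 0.01, 0.00282 and 0.01.

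Of the 2 genes that read out the free tubulin pool, TTC5 recognises nascent tubulin and SCAPER recruits the deadenylase. TTC5 had 0.14 (adjusted p 0.290), -0.09 (0.573) and, in HEL, -0.38 (0.00130). SCAPER had -0.21 (adjusted p 0.182), -0.53 (0.00491) and 0.24 (0.0262). Beside the same 51.1%, 41.0% and 55.0% of all genes, 2 of 9 nucleation genes passed in the DOT1L KO (both lower, median -0.15), 3 in the ENL KO (1 higher, 2 lower, median 0.00679) and 7 in HEL (4 higher, 3 lower, median 0.25). TUBGCP4, a gamma tubulin ring subunit, had -0.36, -0.66 and 0.25, each past the threshold. Of 12 other tubulins 10 were tested in K562, with 5 called in the DOT1L KO (2 higher, 3 lower) and 4 in the ENL KO (2 and 2), and 4 of 8 in HEL (2 and 2). TUBE1, the epsilon tubulin of centrioles, fell by 0.49, 0.36 and 0.45.

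Tubulin modifying enzymes include writers and erasers of marks on the tails. Of 20 tested in K562, 9 passed in the DOT1L KO (4 higher, 5 lower, median -0.01) and 5 in the ENL KO (3 higher, 2 lower, median 0.11), and 9 of 18 in HEL (4 higher, 5 lower, median -0.01). The shares of all genes were 51.1%, 41.0% and 55.0%, and the median absolute log2 fold change in the DOT1L KO was 0.19 for the list and 0.29 for all genes. VASH1, a carboxypeptidase that removes the C-terminal tyrosine of alpha tubulin, had 1.26 and 1.70 CPM in K562 controls. Libraries without DOT1L had 17.1, 16.5 and 16.2, and those without ENL 3.57, 3.11 and 3.26. Its log2 fold changes were 3.48 (SE 0.150, adjusted p 5.86e-10), 1.16 (SE 0.184, adjusted p 0.000197) and, in HEL, -0.29 (SE 0.048, adjusted p 7.76e-07). HDAC6, the tubulin deacetylase, had 0.43 (adjusted p 4.60e-05), 0.93 (5.83e-08) and -0.21 (0.000188). Of 23 microtubule-binding genes, read against the same shares of all genes, 13 passed in the DOT1L KO (7 higher, 6 lower, median 0.04), 14 in the ENL KO (7 and 7, median -0.07) and 14 of 22 in HEL (5 higher, 9 lower, median -0.05). MAP1A, which stabilises microtubules, rose by 0.52 in the DOT1L KO, fell by 0.78 in the ENL KO and fell by 1.33 in HEL. MAPRE3 rose by 0.70, 0.54 and 1.85, and MAPRE2 had 0.46, 0.46 and -0.72, all 3 past the threshold. Both encode EB proteins that bind growing plus ends.

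**Figure D4:**
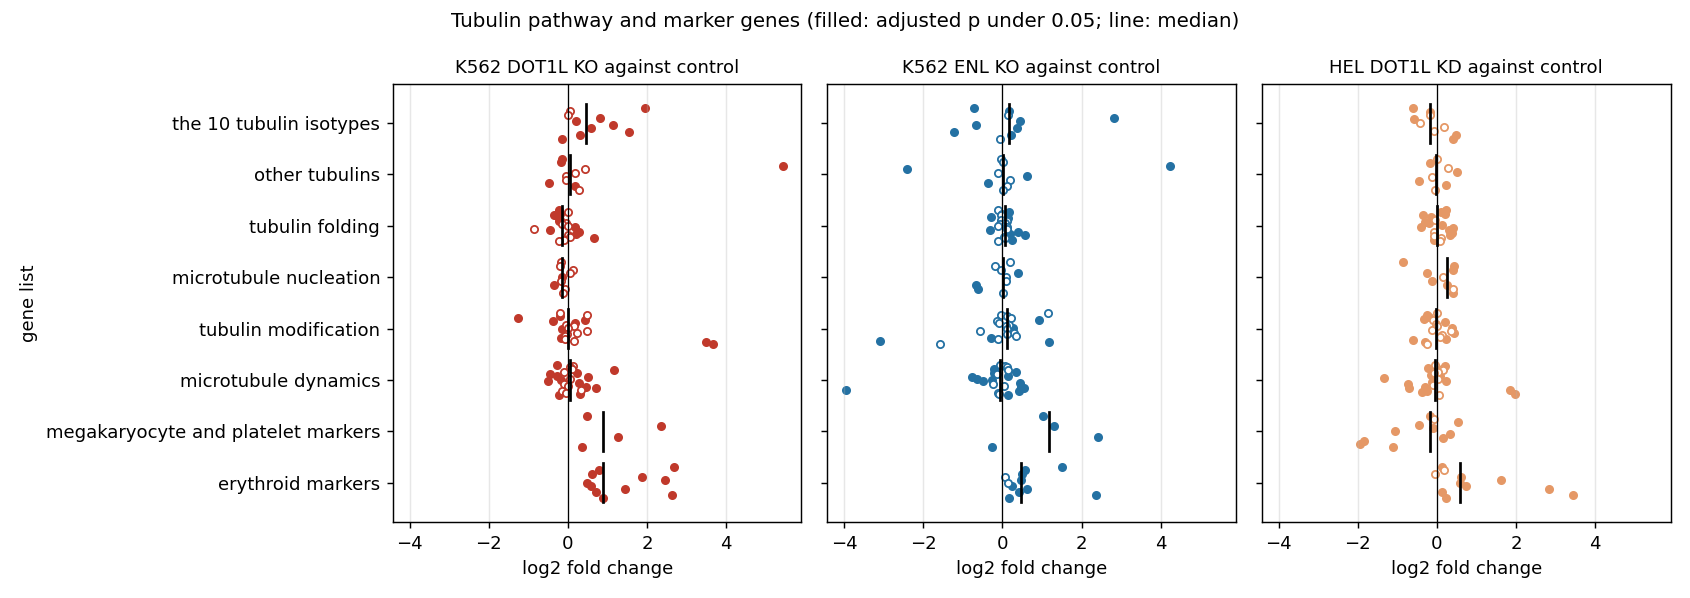
Log2 fold change of every tested gene of 8 lists in the 3 comparisons with a control, with filled points for an adjusted p under 0.05 and a line at the list median. The point near 5.44 in the DOT1L KO is TUBA3C, and the median of the 10 tubulin isotypes lies at 0.45, 0.16 and -0.16.

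Erythroid markers moved beside the tubulins as well. Each of the 11 had counts in every group, and their summed level was 3983 to 4328 CPM in K562 controls, 7903 to 8237 in the DOT1L KO and 5282 to 5655 in the ENL KO. In HEL it was 4505 to 4598 in controls and 6403 to 7099 in the KD. Of the 11, 11 were higher in the DOT1L KO, 9 in the ENL KO and 9 in HEL. The shares of all genes called higher were 26.9%, 18.8% and 27.0%. Among the markers higher in all 3 were SLC4A1 at 2.64, 2.37 and 3.43, HBZ at 1.44, 0.61 and 2.82, and ALAS2 at 2.67, 1.51 and 0.13. Of 5 lymphoid markers 4 had a count in K562 controls, with a sum of 53.9 to 55.6 CPM that was 17.3 to 21.8 in the DOT1L KO and 62.2 to 73.2 in the ENL KO, nearly all of it CD3D, and under 2 CPM in HEL. Of the 3 tested in K562, 2 were lower in the DOT1L KO (24.2% of all genes were). In the ENL KO 1 was higher and 1 lower (18.8% and 22.2% of all genes). The 1 tested in HEL, CD79A, had -0.69 (adjusted p 0.0961). The part of these markers in the tubulin changes was not tested.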

How the data were processed

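RNA-seq of polyadenylated RNA was used from 13 of the 74 samples of the series, and the other samples were not analysed here. The authors deposited whole-number counts per gene, fragments for K562 and reads for HEL, per the file headers. The submitters' processing notes name fastp 0.13.1, HISAT2 2.1.0 and featureCounts 1.6.1, with no order and no strand setting. Genes were filtered with filterByExpr (minimum count 10, minimum total 15), scaled by TMM and tested with the quasi-likelihood test of edgeR 4.0.16 in R 4.3.3, with Benjamini-Hochberg adjustment over all genes tested. The 3 K562 groups shared 1 fit of 8 libraries, HEL had another of 4, and the interaction used 9. SE was taken from the F statistic, intervals are 95%, and a count of 0 was taken to allow 3 counts, which covers counting error only. The spread between replicates, as edgeR's coefficient of variation, was 6.34% in K562 and 1.83% in HEL. Adjusted p-values in HEL thus rest on a smaller spread, and their size cannot be compared with those of K562. Scripts were tested on simulated data.

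The 10 genes, the pathway lists and the marker lists were chosen with earlier results of these data known. The genes named are the 10, the targeted genes, alpha tubulins that enter the shares, up to 3 genes of each list called against control in both knockouts and the KD (or up to 2 per comparison where none were), and the 2 genes nearest in pattern. Alternatives were 3 other scalings, no filter, DESeq2 1.42.0, a fold limit, a replicate block, only the 2 groups compared, and leaving out each library. For TUBB, its length on chromosome 6 alone (levels and shares) and its omission from the shares were added after seeing the data.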

Additional observations from a re-analysis of the deposited data

Results flagged for a closer look

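For 5 of the 10 tubulin genes the change on DOT1L depletion differed between HEL and K562. The test was of the interaction itself (edgeR's quasi-likelihood test), and 38.9% of all 15367 genes passed it. Given as HEL minus K562 on the log2 scale, the difference was -2.52 for TUBA1A (adjusted p 1.00e-13), -1.58 for TUBB4A (3.55e-10) and -1.36 for TUBB1 (2.44e-10). It was 0.57 for TUBB6 (0.000133) and 0.19 for TUBB4B (0.0384). TUBA4A missed the threshold at -0.21 (adjusted p 0.0503), as it did under 10 of 15 alternatives. Over 15 alternatives each, TUBA1A ranged from -2.61 to -2.43, TUBB4A from -1.63 to -1.52, TUBB1 from -1.40 to -1.32 and TUBB6 from 0.46 to 0.68, all past the threshold. TUBB4B ranged from 0.14 to 0.22 and missed the threshold under 9 of 15, including without each HEL library, K562 control 1 and DOT1L KO libraries 2 and 3 in turn (largest adjusted p 0.127). Cell line cannot be told apart from knockdown against knockout or from read against fragment counting.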

How the results depend on the processing

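Across the alternatives other than the fold limit, TUBB1, TUBB4A, TUBB2B and TUBA1A kept their direction and passed in each K562 comparison, as did TUBB1, TUBB4B, TUBB6 and TUBA1A in HEL. With that limit, a log2 fold change of at least 1 as well, the count of tubulin genes was 3 in the DOT1L KO, 2 in the ENL KO, 0 in HEL and 3 for the interaction. The shares of all genes were 15.8%, 11.0%, 5.84% and 12.7%. Leaving out 1 ENL KO library at a time gave 7 or 8 genes in the ENL KO, where 34.9% to 39.6% of all genes passed. Fewer of the 10 passed without control 2, which leaves control 1 alone, and so did a smaller share of all genes. Replicate numbers were not treated as pairs in the main fits, since the labels name no shared batch for a number. Deviations from the group means had correlations of 0.05 to 0.22 between same-numbered K562 libraries. Between differently numbered K562 libraries they were -0.16 to 0.09. Same-numbered HEL libraries had 0.00 (0.000442). Deviations cancel out within a group, so correlations for different numbers are partly fixed by those for the same number. A shared replicate effect in K562 was not tested. With the replicate block the counts were 8 in the DOT1L KO, 9 in the ENL KO, 5 in HEL and 7 for the interaction. Between the knockouts the count was 10 (5 higher, 5 lower), in place of 5 without the block. With the block 58.3% of all genes passed in the DOT1L KO, 49.1% in the ENL KO and 67.2% between the knockouts. In HEL 54.6% did, and for the interaction 44.4%. Signs turned, each short of the threshold, for TUBB in the DOT1L KO (-0.00943 with no filter, and from -0.0415 to 0.0784 leaving out 1 library), TUBB3 in HEL (-0.32 to 0.92 leaving out 1 library), its interaction (-0.89 to 0.35 likewise, positive without HEL control 2) and TUBB4A in HEL (0.00767 with upper-quartile scaling); the cause was not tested. No scaling moved the median of all genes by over 0.1. DESeq2 called 4561 genes in HEL, against 6951.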
